A study of Mus musculus with 30 samples.

Results

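The step between 32 h and 60 h after muscle injury was examined in mouse satellite cells, the resident stem cells of skeletal muscle. Gene counts of 4 libraries were compared, 2 labelled 32 h (32hpi) and 2 labelled 60 h (60hpi), of 30 libraries in the series; the 4 were chosen by the time in their labels. Both groups are C57BL/6 skeletal muscle, labelled as muscle stem cells. The hind limb had been injected with barium chloride (BaCl2), which destroys muscle fibres, and the mice were perfused with the fixative paraformaldehyde (PFA) before the cells were isolated, so RNA was fixed in place. RNA was extracted with a kit for fixed tissue, and cDNA of polyadenylated RNA was amplified and sequenced. The 2 groups differ by label only in the time after injury, and both are injured. The labels give no age, no transgene and no treatment but the injury, and they do not say whether the 2 libraries of a time come from separate mice. P-values here therefore measure only the spread between these samples, which may be technical. Another 14 libraries of the same count table (uninjured cells and cells taken 0.5, 1, 2, 4, 8 and 16 h after injury) are shown for context.

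Satellite cells rest outside the cell cycle in uninjured muscle. After injury they activate, enter the cycle and divide as myoblasts, and part of their progeny later leaves the cycle, switches on muscle genes and fuses into new fibres. Pax7 marks the stem and progenitor state, Myf5 and Myod1 the activated myoblast, and Myog (myogenin) the cell committed to differentiate. Between first division and differentiation the genes of DNA synthesis, mitosis, cell fusion and the sarcomere are switched on in an ordered way.

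Total counts were 32.2 and 24.3 M in the 32 h libraries and 26.6 and 28.5 M in the 60 h libraries. Genes with any count were fewer at 60 h (22629 and 22679) than at 32 h (25477 and 25549), which bears on genes of low level. Levels are given as CPM, counts relative to library size, after scaling of the 18 libraries of the table with TMM, and changes as the log2 fold change of 60 h over 32 h ± its standard error (SE). A gene was called higher or lower at an adjusted p under 0.05 (edgeR quasi-likelihood test, Benjamini-Hochberg adjustment over the 18369 genes tested, 2 libraries a group). With this test 472 genes (2.57%) were higher and 484 (2.63%) lower at 60 h, and the median change over all genes tested was -0.11. The smallest adjusted p was 0.0280, and with no filter on low counts no gene was called (0 of 30061), although 5314 of those had an unadjusted p under 0.05; DESeq2 called 3386. Ribosomal RNA models took 6.07% and 10.02% of the counts at 32 h and 28.6% and 31.4% at 60 h; with these models left out before scaling 1055 genes were called, and all 87 called genes among those named by rule were called again. Of those 87 genes, 50 were called in every one of the 4 fits that left out 1 library.

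The 2 libraries at 32 h did not match each other as closely as those at 60 h. Among the genes tested, 15.4% differed by more than 2-fold between the 32 h libraries and 3.45% between the 60 h libraries (after adding 1 CPM). Library 1 at 32 h had Pax7 at 53.6 CPM and Myod1 at 1370 CPM, and library 2 had 291 and 412 CPM. Library 1 was also the higher of the pair in 29 of 29 genes of ribosome biogenesis and 37 of 39 genes of DNA replication. Without 32 h library 1 the test called 2482 genes (1564 higher, 918 lower), without 32 h library 2 it called 2565 (1117 and 1448), without 60 h library 1 it called 1166 (380 and 786), and without 60 h library 2 it called 1104 (376 and 728). In such a fit the lone library of a time is assumed to vary like the other group. Calls that depend on a library are given beside the genes below.

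Markers of satellite cells and myoblasts were present in all 4 libraries. Pax7 stood at 53.6 and 291 CPM at the earlier time and at 157 and 149 CPM at 60 h, Itga7 (integrin alpha 7, a laminin receptor of muscle cells) at 482 and 450 and then 711 and 858 CPM, and Cdh15 (M-cadherin, a myoblast adhesion protein) at 92.8 and 231 and then 198 and 245 CPM. Myf5 stood at 183 CPM or more, and Myod1 at 412 CPM or more, in each of the 4.

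**Figure D1:**
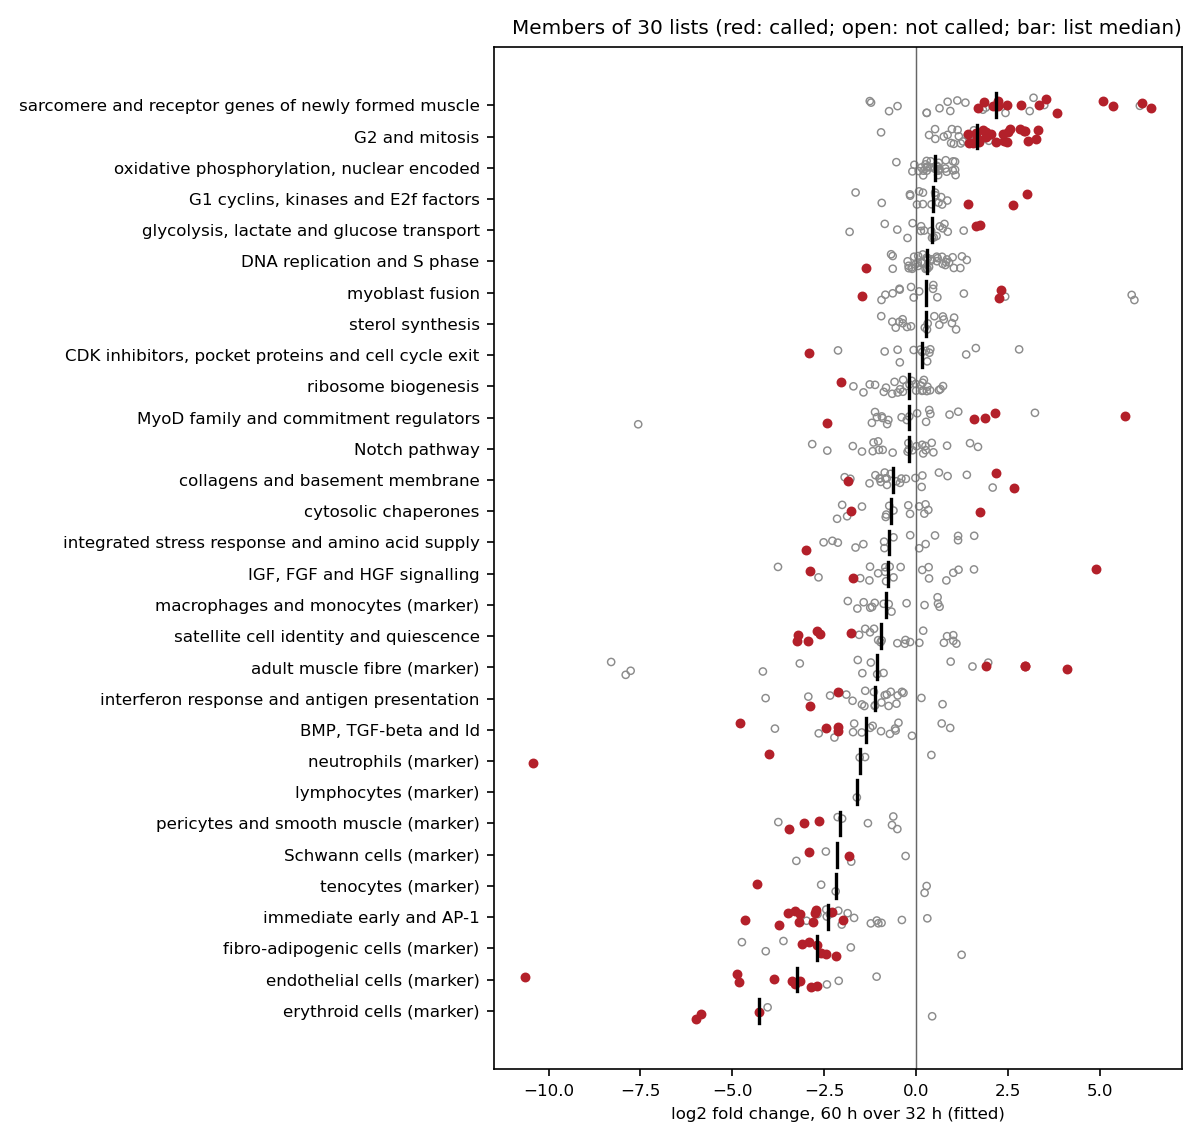
Log2 fold change of 60 h over 32 h for each tested member of 30 gene lists, ordered by list median; red filled points are called genes, open points are not called, the black bar is the list median, and the 6 points farthest left are genes with no count at 60 h, whose fitted value is no bound. Genes of newly formed muscle and of mitosis have the highest list medians (2.16 and 1.65), and immediate early genes and several marker lists of other cell types lie below -2.

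Genes of G2 phase and mitosis were higher at 60 h. All 42 members of this list were tested, and 24 were higher and 0 lower, beside 2.57% and 2.63% of all genes tested. The median change was 1.65 beside -0.11 over all genes. In 41 of the 42 both 60 h libraries lay above both 32 h libraries, against 28.2% of all genes tested. The exception was Pttg1 (securin, which guards sister chromatid cohesion), at 31.0 and 54.7 CPM and then 21.3 and 22.8 CPM.

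Ccnb1 encodes cyclin B1, the partner of Cdk1 at entry into mitosis, and lies at chr13:100778650-100786570 on the minus strand (mm10). It stood at 24.7 and 29.5 CPM at the earlier time and at 265 and 269 CPM at 60 h. Both 60 h libraries lay far above both 32 h libraries, and the log2 fold change was 3.30 ± 0.28 (edgeR adjusted p = 0.0280). Plk1, a kinase of spindle assembly, stood at 11.1 and 15.6 CPM and then at 126 CPM in both 60 h libraries (3.25 ± 0.30). Cdc20, the activator of the anaphase-promoting complex, stood at 32.9 and 40.9 CPM and then at 294 and 311 CPM (3.04 ± 0.28). Espl1 (separase, the protease that cuts cohesin) stood at 14.9 and 16.6 CPM and then at 126 and 119 CPM (2.97 ± 0.26). In these 4 genes the 2 libraries of each time were close to each other, and the calls held with any 1 library left out. Ccnb2 (cyclin B2) and Aurka (the Aurora A spindle pole kinase) rose by 2.94 ± 0.28 and 2.48 ± 0.26.

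Not every mitotic gene moved as much. Mki67, the gene of the Ki-67 proliferation antigen, stood at 57.2 and 60.3 CPM and then at 180 and 206 CPM (1.72 ± 0.26, edgeR adjusted p = 0.0362). Ccna2, cyclin A2 of S and G2 phase, stood at 92.2 and 65.8 CPM and then at 289 and 268 CPM (1.82 ± 0.29). Both pairs of groups were apart, but neither gene passed without 60 h library 1 (edgeR adjusted p = 0.0990 for Mki67 and 0.124 for Ccna2) or without 60 h library 2 (0.169 and 0.0959). Top2a, the topoisomerase that untangles replicated chromosomes, stood at 141 and 151 CPM and then at 203 and 213 CPM, a difference of 0.51 ± 0.25 that did not pass (edgeR adjusted p = 0.253). Cdk1 itself was at 66.3 and 70.3 CPM and then at 152 and 146 CPM (1.13 ± 0.25, edgeR adjusted p = 0.0614). The count of 24 members became 33 without either 32 h library and 14 without either 60 h library.

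Promoters of these genes were read to show what they hold in common. The windows (RefSeq, GRCm38.p6) run from 250 bases before to 50 after each start site. They were searched on both strands for TTTGAA, the core of the cell cycle homology region (CHR), and for CCAAT, the box bound by NF-Y, as a description only. Of 34 list genes with a window, 25 held TTTGAA (73.5%) and 26 held CCAAT (76.5%), beside 20.2% and 41.1% of 27025 genes. Of 31 genes of the DNA replication list, 4 held TTTGAA (12.9%) and 18 held CCAAT (58.1%). TTTGAA was as frequent in mitotic genes that were not called (10 of 14, 71.4%) as in those called higher (15 of 20, 75%). The promoters of 3 genes are shown as examples to 20 bases past the start, 5′ to 3′ on the strand of the gene, with both motifs in capitals. Over the same stretch Plk1 and Aurka, not shown, have 1 and 2 CCAAT boxes and no TTTGAA. Whether either motif goes with the size of a change was not tested. Of those shown, Ccnb1 has 2 CCAAT boxes and no TTTGAA, Ccnb2 has 3 and 2, and Cdc20 has 2 and 1:
Ccnb1, chr13:100786467-100786736, minus strand: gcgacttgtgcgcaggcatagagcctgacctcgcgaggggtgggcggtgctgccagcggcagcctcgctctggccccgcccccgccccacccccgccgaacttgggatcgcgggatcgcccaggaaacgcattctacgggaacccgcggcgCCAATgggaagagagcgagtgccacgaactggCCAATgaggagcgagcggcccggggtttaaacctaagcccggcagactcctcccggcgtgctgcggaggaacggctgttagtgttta
Ccnb2, chr9:70421535-70421804, minus strand: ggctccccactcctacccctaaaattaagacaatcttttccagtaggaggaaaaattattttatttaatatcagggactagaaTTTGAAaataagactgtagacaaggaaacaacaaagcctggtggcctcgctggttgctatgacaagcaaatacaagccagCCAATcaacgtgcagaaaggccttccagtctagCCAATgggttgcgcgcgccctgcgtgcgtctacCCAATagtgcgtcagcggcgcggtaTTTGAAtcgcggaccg
Cdc20, chr4:118437324-118437593, minus strand: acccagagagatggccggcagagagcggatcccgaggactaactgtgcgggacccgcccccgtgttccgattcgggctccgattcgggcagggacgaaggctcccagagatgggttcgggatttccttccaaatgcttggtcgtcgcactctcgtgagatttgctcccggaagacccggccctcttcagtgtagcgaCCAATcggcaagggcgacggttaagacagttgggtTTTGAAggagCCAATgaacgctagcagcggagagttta

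All 39 members of the DNA replication list were tested; 0 were higher and 1 was lower, with a median of 0.30, a share of lower calls near the 2.63% of all genes. Summed over the list, the libraries of 16, 32 and 60 h were at 1107 and 774, 5287 and 3100, and 5199 and 5689 CPM. For the mitotic list the same sums were 138 and 135, 1406 and 1431, and 4661 and 4716 CPM. The replication sum of 32 h library 1 was thus already at the level of the 60 h libraries, while for mitosis both 32 h libraries were below both 60 h libraries.

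**Figure D2:**
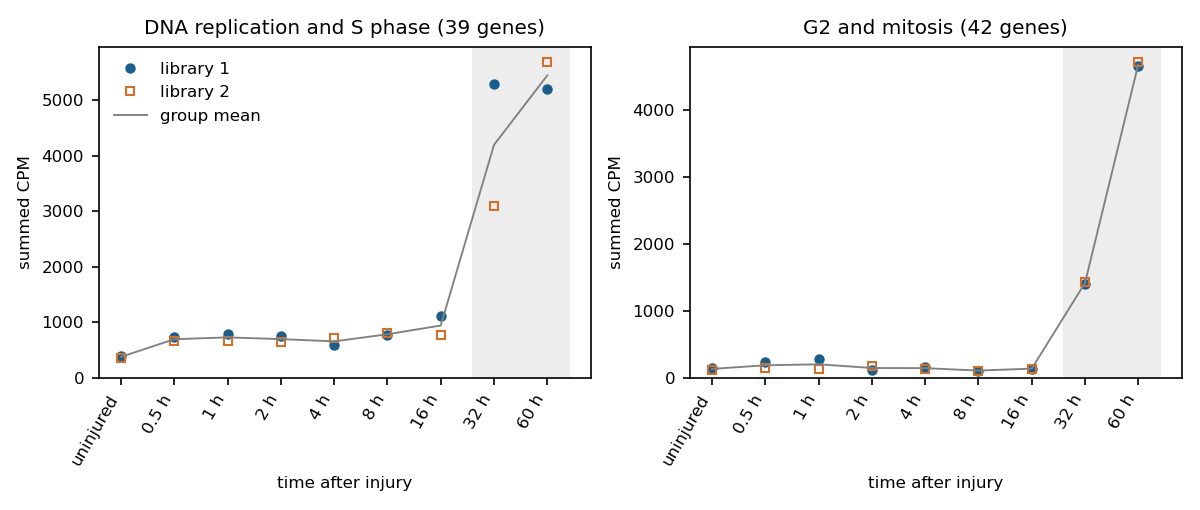
Summed CPM of the DNA replication list (left) and the G2 and mitosis list (right) in each library against time after injury; circles are library 1, open squares library 2, the line joins group means and the shaded band holds 32 and 60 h. Replication sums go from 5287 and 3100 to 5199 and 5689 CPM, while mitosis sums go from 1406 and 1431 to 4661 and 4716 CPM.

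Mcm2, a subunit of the helicase that opens replication origins, shows the spread at 32 h. It stood at 238 and 106 CPM at the earlier time and at 193 and 231 CPM at 60 h, so the groups overlap (0.30 ± 0.43, edgeR adjusted p = 0.708), and its sign turned without 32 h library 2 (-0.17). Pcna, the sliding clamp of DNA polymerase, stood at 427 and 263 CPM and then at 214 and 229 CPM (-0.64 ± 0.32, edgeR adjusted p = 0.271); without 32 h library 2 it passed as lower (0.0311). Rfc1, the large subunit of the clamp loader, stood at 76.8 and 71.0 CPM and then at 29.3 and 27.7 CPM and was the member called lower (-1.38 ± 0.24, edgeR adjusted p = 0.0446). It did not pass without 60 h library 1 (0.289) or 60 h library 2 (0.341). Leaving out 32 h library 2 gave 4 lower members.

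Of 18 G1 cyclins, their kinases and E2f factors, 3 were higher and 0 lower (median 0.46), beside 2.57% and 2.63% of all genes tested. E2f8, an E2f factor that represses replication genes, stood at 20.1 and 10.1 CPM and then at 135 and 110 CPM (3.02 ± 0.42, edgeR adjusted p = 0.0333). Its close relative E2f7 stood at 16.2 and 7.29 CPM and then at 73.0 and 73.6 CPM (2.64 ± 0.44, edgeR adjusted p = 0.0411). Both were above the 32 h range in both 60 h libraries and were called with any 1 library left out. Cdk6, a G1 kinase, went from 174 and 159 to 445 and 429 CPM (1.39 ± 0.25) but did not pass without 60 h library 1 (edgeR adjusted p = 0.308) or 60 h library 2 (0.281). Ccnd1, cyclin D1, was at 340 and 278 CPM and then at 275 and 273 CPM, a difference of -0.17 ± 0.26 (edgeR adjusted p = 0.723). Leaving out 32 h library 1 gave 9 higher members, and leaving out either 60 h library gave 2.

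Inhibitors of the cycle were mostly not called, as were genes in general. Of 15 CDK inhibitors, pocket proteins and exit genes, 0 were higher and 1 was lower (median 0.16). Of all genes tested, 2.57% were higher and 2.63% lower. Btg1, an anti-proliferative gene, stood at 394 and 462 CPM and then at 47.5 and 65.5 CPM and was lower by every fit that left out a library (-2.92 ± 0.31, edgeR adjusted p = 0.0280). In uninjured cells it stood at 92.6 and 102 CPM. Cdkn1a (p21), the inhibitor that Myod1 can induce, stood at 365 and 257 CPM and then at 386 and 425 CPM (0.38 ± 0.29, edgeR adjusted p = 0.456). Cdkn1c (p57), an inhibitor of differentiating myoblasts, stood at 3.86 and 40.8 CPM and then at 56.1 and 58.2 CPM. Its 32 h libraries were far apart (1.36 ± 0.96, edgeR adjusted p = 0.422), and it passed as higher without 32 h library 2 (0.0254). Rb1, the retinoblastoma protein gene, had overlapping groups at 9.89 and 11.7 and then 11.4 and 15.1 CPM. The list had 2 lower members without 32 h library 1 or 60 h library 2.

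The regulators of commitment moved in both directions. Of 24 genes of the MyoD family and its partners 23 were tested. Of these, 4 were higher and 1 was lower, beside 2.57% and 2.63% of all genes tested, with a median of -0.19. Pax7 (chr4:139737062-139833528, minus strand) lay at 60 h between the 2 libraries of 32 h, so its groups overlap (-0.17 ± 0.73, edgeR adjusted p = 0.912). It was lower without 32 h library 1 (edgeR adjusted p = 0.0374) and higher without 32 h library 2 (log2 fold change 1.51, edgeR adjusted p = 0.0262). Myod1 (chr7:46376474-46379099, plus strand) stood at 1370 and 412 CPM and then at 428 and 421 CPM, again with overlap (-1.07 ± 0.56, edgeR adjusted p = 0.289). Without 32 h library 1 its change was 0.04, and without 32 h library 2 it passed as lower (0.0254). Myf5 stood at 584 and 273 CPM and then at 211 and 183 CPM (-1.12 ± 0.41, edgeR adjusted p = 0.161); it passed as lower without 32 h library 2 (0.0262). For these 3 determination genes the direction or the call thus rested on which 32 h library was kept.

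Myog (chr1:134289989-134292548, plus strand), the switch into differentiation, stood at 3.98 and 26.6 CPM at the earlier time and at 137 and 149 CPM at 60 h. At 16 h it had no count in either library, as the plot of genes over time shows. Both 60 h libraries were above both 32 h libraries, but the 32 h libraries were far apart and the change of 3.23 ± 0.86 did not pass (edgeR adjusted p = 0.0841). In each of the 4 fits that left out 1 library it did pass (0.0348 and 0.0254 without 32 h library 1 and 2, 0.000109 and 0.000282 without 60 h library 1 and 2). Smyd1, a methyltransferase needed for sarcomere assembly, went from 0.380 and 0.235 CPM to 18.8 and 13.4 CPM (5.68 ± 0.50, edgeR adjusted p = 0.0280). It entered the test only through the 60 h libraries, so the filter set part of this difference. It overlaps other gene models on the opposite strand, whose reads cannot be told apart, since the strand used in counting is not given in the sources used here. Hes6, a Hes-family factor that promotes myogenic differentiation, went from 30.4 and 47.8 to 177 and 170 CPM (2.15 ± 0.32, edgeR adjusted p = 0.0362). Both were called with any 1 library left out. Tcf3, the E protein that pairs with MyoD factors, and Six4, a homeobox factor upstream of them, rose by 1.57 ± 0.28 and 1.86 ± 0.36. Tcf3 did not pass without 60 h library 1 (edgeR adjusted p = 0.149) or 60 h library 2 (0.257), and Six4 did not pass without 60 h library 1 (0.0942). Msc (musculin), a repressor of MyoD targets, went from 82.9 and 95.1 to 18.02 and 15.03 CPM (-2.43 ± 0.27, edgeR adjusted p = 0.0280), and did not pass without 60 h library 2 (0.0559). Myf6 and Mef2c, factors of later differentiation, stayed under 4 CPM in all 4 libraries and were not called. The count of lower members was 5 without 32 h library 2.

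**Figure D3:**
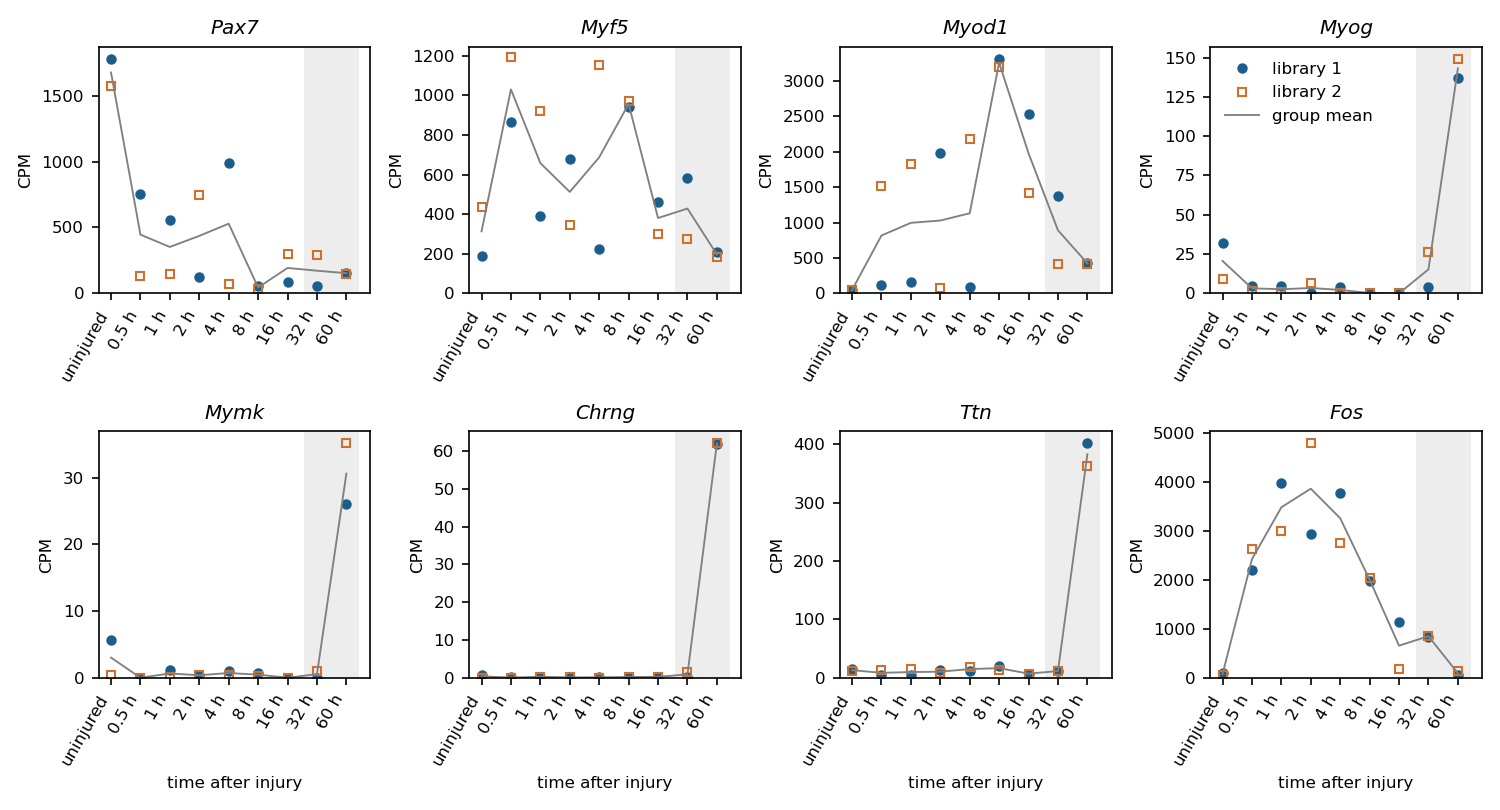
CPM of 8 genes in each library against time after injury (linear axes from 0); circles are library 1, open squares library 2, the line joins group means and the shaded band holds 32 and 60 h. Pax7 and Myod1 at 60 h lie within the spread of the 32 h libraries, while Myog, Mymk, Chrng and Ttn are highest in the 60 h libraries of the 18 shown.

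Fusion genes were called in both directions. Of 20 members 18 were tested, and 2 were higher and 1 was lower (median 0.27). The shares over all genes tested were 2.57% higher and 2.63% lower. Mymk (myomaker), the membrane protein without which myoblasts do not fuse, stood at 0 and 1.08 CPM and then at 26.0 and 35.2 CPM. Mymx (myomixer), its small partner, stood at 0 and 0.202 CPM and then at 4.63 and 7.73 CPM. Neither passed, with changes of 5.86 ± 1.29 and 5.93 ± 1.19 (edgeR adjusted p = 0.0622 and 0.0533), and both passed in each of the 4 fits that left out 1 library (highest 0.0467). Both entered the test only through the 60 h libraries, so their difference is in part set by the filter. Cdh2 (N-cadherin) and Myof (myoferlin, a membrane repair and fusion protein) were called higher with any 1 library left out, from 27.1 and 20.3 to 106 and 121 CPM (2.26 ± 0.29) and from 27.0 and 17.8 to 98.3 and 121 CPM (2.29 ± 0.32). Cd9, a tetraspanin that restrains myotube fusion, went from 392 and 327 to 126 and 132 CPM (-1.48 ± 0.26, edgeR adjusted p = 0.0440), and did not pass without 60 h library 1 (0.342) or 60 h library 2 (0.312). Between 4 and 6 members were higher when 1 library was left out, 6 of them without either 32 h library.

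Genes of the sarcomere and of the embryonic acetylcholine receptor were higher at 60 h. Of 34 members of the list of newly formed muscle 32 were tested. Of these, 14 were higher and 0 lower, beside 2.57% and 2.63% of all genes tested, with a median of 2.16. Of the 32, 7 passed the filter on low counts only through the 60 h libraries (among them Myh3 and Chrng), so the count includes genes that had to differ. The other 25 were above the filter at both times. Leaving out 1 library left between 14 and 18 members higher.

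Ttn (titin, the molecular spring of the sarcomere, chr2:76703980-76982547, minus strand) stood at 11.7 and 11.1 CPM and then at 402 and 364 CPM, with a wide gap between the times (5.07 ± 0.30, edgeR adjusted p = 0.0280). Chrng, the fetal gamma subunit of the muscle acetylcholine receptor, stood at 0.322 and 1.44 CPM and then at 61.9 and 62.1 CPM (6.15 ± 0.72, edgeR adjusted p = 0.0280). Chrnd, the delta subunit, stood at 13.0 and 8.74 CPM and then at 123 and 125 CPM (3.52 ± 0.32). Chrna1, the alpha subunit, was already at 202 and 219 CPM at the earlier time and stood at 699 and 799 CPM at 60 h (1.83 ± 0.26). The beta subunit gene Chrnb1 was not called, at 182 and 269 CPM and then at 163 and 154 CPM. So 3 of the 4 fetal receptor subunit genes in the list were higher and 1 was not called.

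Among sarcomere genes, Tnnt2 (cardiac-type troponin T, made early in myotubes) went from 1.14 and 2.25 to 22.7 and 25.2 CPM (3.82 ± 0.45, edgeR adjusted p = 0.0280). Myh3, the embryonic myosin heavy chain, went from 0.439 and 0.0672 to 11.1 and 10.3 CPM (5.34 ± 0.82, edgeR adjusted p = 0.0366). These genes and Ttn, Chrng and Chrnd were called with any 1 library left out. Acta1, skeletal actin, went from 11.0 and 9.68 to 35.6 and 53.0 CPM (edgeR adjusted p = 0.0365). It did not pass without 32 h library 1 (0.0542), 32 h library 2 (0.0532) or 60 h library 2 (0.0763). Des (desmin, the intermediate filament that myoblasts already make) was not called, at 1116 and 802 CPM and then at 532 and 617 CPM (-0.74 ± 0.29, edgeR adjusted p = 0.176).

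The E-box CANNTG is the site that MyoD-family factors bind, and CAGCTG is one form of it; both read the same on both strands. In the promoter windows 27 of 30 genes of this list held CANNTG (90%) and 13 held CAGCTG (43.3%), beside 75.0% and 18.3% of all genes. Promoters ending 20 bases past the start were read for single genes (RefSeq, GRCm38.p6). Those of Ttn, Myh3 and Smyd1, not shown, held CANNTG 1, 1 and 0 times. Smyd1 and Myog belong to the MyoD family list. Whether the number of E-boxes goes with the size of a change was not tested. The promoters of Myog, Chrng and Chrna1 are shown as examples, with CANNTG in capitals, which occurs 2, 3 and 3 times:
Myog, chr1:134289754-134290023, plus strand: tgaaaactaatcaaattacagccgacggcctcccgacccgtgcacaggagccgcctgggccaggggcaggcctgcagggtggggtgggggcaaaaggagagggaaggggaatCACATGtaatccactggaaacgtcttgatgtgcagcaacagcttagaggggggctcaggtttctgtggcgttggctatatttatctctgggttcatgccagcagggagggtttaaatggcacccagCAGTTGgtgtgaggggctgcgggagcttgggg
Chrng, chr1:87205561-87205830, plus strand: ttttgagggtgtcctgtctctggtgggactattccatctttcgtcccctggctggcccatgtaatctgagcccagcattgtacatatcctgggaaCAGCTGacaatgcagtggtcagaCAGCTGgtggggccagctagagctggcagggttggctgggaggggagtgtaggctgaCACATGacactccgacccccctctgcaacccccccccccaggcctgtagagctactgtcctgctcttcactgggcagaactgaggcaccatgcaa
Chrna1, chr2:73580319-73580588, minus strand: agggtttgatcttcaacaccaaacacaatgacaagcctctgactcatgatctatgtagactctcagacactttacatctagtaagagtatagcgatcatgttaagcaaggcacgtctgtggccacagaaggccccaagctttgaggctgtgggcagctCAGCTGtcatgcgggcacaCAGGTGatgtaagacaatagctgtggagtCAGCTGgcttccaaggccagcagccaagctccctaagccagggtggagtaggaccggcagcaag

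Some genes of adult muscle fibres were higher at 60 h. Of 18 members 17 were tested, and 4 were higher and 0 lower, beside 2.57% and 2.63% of all genes tested. The median was -1.06, and 10 of the 17 had a negative change. Eno3, the muscle enolase, went from 35.3 and 24.6 to 504 and 519 CPM (4.09 ± 0.33, edgeR adjusted p = 0.0280). Myom2, an M-line protein, went from 1.29 and 2.15 to 14.5 and 12.4 CPM, and Tnni2, fast troponin I, from 1.11 and 2.65 to 15.4 and 13.8 CPM (2.97 ± 0.44 and 2.96 ± 0.53). Actn3, fast alpha-actinin, went from 53.7 and 97.1 to 266 and 291 CPM (1.89 ± 0.37, edgeR adjusted p = 0.0495), and did not pass without 60 h library 1 (0.0764) or 60 h library 2 (0.107). Atp2a1, the calcium pump of fast fibres, went from 11.0 and 20.03 to 51.1 and 69.2 CPM (1.96 ± 0.39) and was not called (edgeR adjusted p = 0.0520). Of the 17 tested, 7 entered only through the 32 h libraries, Myh4 and Mb among them, so the filter set part of their differences and of the negative median. Myh4, the fast IIb myosin, stood at 0.790 and 2.05 CPM and had no count at 60 h, as had Mb (myoglobin), at 1.05 and 0.907 CPM at 32 h. Ckm, muscle creatine kinase, stood at 4.53 and 5.21 CPM and then at 1.03 and 2.49 CPM. None of these 3 passed (edgeR adjusted p = 0.0606, 0.0595 and 0.186).

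Genes of satellite cell identity and quiescence were lower where they were called, but 7 of the 24 had a positive change and were not called. All 24 members were tested, and 0 were higher and 6 lower, beside 2.57% and 2.63% of all genes tested. The median was -0.96. In 14 both 60 h libraries lay below both 32 h libraries, and in 5 above, beside 31.6% and 28.2% of all genes tested. Among those 5, Met went from 129 and 97.3 to 211 and 245 CPM. Sdc3, another, went from 18.3 and 20.2 to 37.8 and 39.5 CPM. Chrdl2, a secreted BMP antagonist, went from 105 and 109 to 11.8 and 11.1 CPM (-3.22 ± 0.26, edgeR adjusted p = 0.0280). Cxcr4, a chemokine receptor of satellite cells, went from 23.3 and 22.6 to 2.45 and 3.48 CPM (-2.95 ± 0.35, edgeR adjusted p = 0.0280). Both were called with any 1 library left out, and both 60 h libraries lay far below the 32 h libraries. Gpx3, a secreted glutathione peroxidase, went from 2807 and 4113 to 571 and 496 CPM (-2.70 ± 0.32), and missed the threshold without 60 h library 2 (edgeR adjusted p = 0.0501). Spry1, an inhibitor of FGF signalling that holds cells in quiescence, went from 57.2 and 56.5 to 17.2 and 15.8 CPM (-1.78 ± 0.25), and did not pass without 60 h library 1 (edgeR adjusted p = 0.126) or 60 h library 2 (0.172). Calcr, the calcitonin receptor of resting cells, was not called, at 26.2 and 32.4 CPM and then at 13.9 and 16.6 CPM (-0.94 ± 0.29, edgeR adjusted p = 0.109). Cd34 was at 263 and 282 CPM and then at 129 and 149 CPM (-0.97 ± 0.26, edgeR adjusted p = 0.0820), and Vcam1 at 852 and 418 and then at 228 and 258 CPM (-1.39 ± 0.40, 0.0966). Cd34 passed as lower without 32 h library 1 (0.0453) or 32 h library 2 (0.0453), and Vcam1 without 32 h library 2 (0.0254). The count of lower members was 11 without 32 h library 1.

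Of 26 Notch pathway genes 24 were tested, and 0 were higher and 0 lower by the edgeR test (median -0.21). Of the 24, 2 (Dll4 and Mfng) entered only through the 32 h libraries, so the filter set part of the median. Notch signalling keeps satellite cells undifferentiated. Notch1, the receptor, stood at 59.8 and 111 CPM and then at 234 and 237 CPM (1.46 ± 0.37, edgeR adjusted p = 0.0761), and passed as higher without 32 h library 1 (0.0357) or 32 h library 2 (0.0254). Notch3 stood at 24.6 and 118 CPM and then at 125 and 130 CPM (0.84 ± 0.69, edgeR adjusted p = 0.492), and passed without 32 h library 2 (0.0254). The target genes Heyl (51.5 and 126, then 111 and 91.3 CPM) and Hes1 (48.2 and 170, then 44.5 and 71.6 CPM) had overlapping groups and turned sign without 1 of the 32 h libraries. The ligand gene Dll1 was at 39.5 and 36.6 CPM and then at 35.5 and 30.1 CPM (-0.21 ± 0.26, edgeR adjusted p = 0.644).

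Immediate early genes, which cells switch on within minutes of a stimulus, were lower at 60 h. All 26 members were tested, and 0 were higher and 11 lower, beside 2.57% and 2.63% of all genes tested. The median was -2.39. Klf4, a zinc finger factor, went from 97.9 and 68.6 to 2.66 and 3.99 CPM (-4.64 ± 0.38, edgeR adjusted p = 0.0280). Ier5, a small early response gene, went from 44.3 and 49.4 to 7.04 and 6.96 CPM (-2.74 ± 0.27, edgeR adjusted p = 0.0280). Both were called with any 1 library left out. Fos (chr12:85473890-85477273, plus strand), the AP-1 subunit, stood at 839 and 862 CPM and then at 45.7 and 140 CPM (-3.20 ± 0.57, edgeR adjusted p = 0.0451). The groups were apart, but the 60 h libraries were not close, and Fos missed the threshold without 32 h library 1 (0.0898), 32 h library 2 (0.0821) or 60 h library 1 (0.050005). Jun, its partner, went from 443 and 895 to 87.7 and 115 CPM (-2.72 ± 0.43, edgeR adjusted p = 0.0382), and did not pass without 60 h library 1 (0.0564). Nr4a2, an orphan nuclear receptor, went from 45.8 and 47.8 to 2.32 and 6.01 CPM (-3.49 ± 0.51) but did not pass without 32 h library 1 (edgeR adjusted p = 0.0589) or 32 h library 2 (0.0541). Egr1, a zinc finger factor of the early response, was not called, at 656 and 1097 CPM and then at 453 and 885 CPM (-0.39 ± 0.43). Myc stood at 1363 and 664 CPM and then at 321 and 307 CPM (-1.69 ± 0.40, edgeR adjusted p = 0.0702), and passed as lower without 32 h library 1 (0.0348) or 32 h library 2 (0.0254). Library 2 at 60 h was the higher of its pair in 22 of the 26 genes.

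Genes of secreted signals were called in both directions. Of 24 BMP, TGF-beta and Id genes 20 were tested. Of these, 0 were higher and 4 lower (median -1.37), beside 2.57% and 2.63% of all genes tested. Of the 20, 2 (Smad6 and Inhba, neither called) entered only through the 32 h libraries, so the filter set part of the median. Bmp2, a ligand, went from 31.9 and 13.5 to 0.644 and 0.988 CPM (-4.79 ± 0.60, edgeR adjusted p = 0.0317) and was called with any 1 library left out. Bmp4 went from 65.6 and 110 to 20.9 and 19.2 CPM (-2.13 ± 0.34) but did not pass without 60 h library 1 (edgeR adjusted p = 0.0639) or 60 h library 2 (0.0929). Id1 and Id3, BMP targets that block MyoD partners, stood at 183 and 230 and then 74.4 and 99.0 CPM, and at 489 and 945 and then 230 and 206 CPM. Neither passed (edgeR adjusted p = 0.0694 and 0.0637); Id3 did without 32 h library 1 (0.0348) or 32 h library 2 (0.0293). The list had 7 lower members without 32 h library 2.

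Of 22 IGF, FGF and HGF genes, 1 was higher and 2 lower (median -0.77), beside 2.57% and 2.63% of all genes tested. Of the 22, 2 (Fgf2 and Fgf7, neither called) entered only through the 32 h libraries, so the filter set part of the median. Igfbp2, a binding protein that holds IGFs, went from 0.819 and 0.840 to 22.5 and 27.1 CPM (4.90 ± 0.36, edgeR adjusted p = 0.0280). Igfbp4, another, went from 69.5 and 166 to 14.5 and 17.3 CPM (-2.88 ± 0.48, edgeR adjusted p = 0.0411), and both were called with any 1 library left out. Fgfr1, the FGF receptor of proliferating myoblasts, went from 573 and 437 to 147 and 159 CPM (-1.72 ± 0.28) but did not pass without 60 h library 1 (edgeR adjusted p = 0.260) or 60 h library 2 (0.223). Igf2, an autocrine growth factor of differentiating myoblasts, stood at 14.4 and 47.5 CPM and then at 72.9 and 64.5 CPM (1.15 ± 0.56, edgeR adjusted p = 0.256), and passed as higher without 32 h library 2 (0.0256). H19, its imprinted neighbour, stood at 24.4 and 35.8 CPM and then at 63.1 and 43.1 CPM and was not called. Without 32 h library 1, 3 members were higher and 6 lower, and 3 were higher without 32 h library 2.

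In nuclear-encoded oxidative phosphorylation 0 of 31 were called in either direction by the edgeR test (median 0.51), and 24 of them had both 60 h libraries above both 32 h libraries, against 28.2% of all genes tested. In glycolysis 2 of 19 were higher and 0 lower (median 0.43), against 2.57% of all genes higher. They were Tpi1 (triosephosphate isomerase), from 255 and 238 to 775 and 867 CPM, and Eno1 (alpha-enolase), from 1132 and 745 to 2905 and 2923 CPM. Neither passed without 60 h library 1 (edgeR adjusted p = 0.128 and 0.199) or 60 h library 2 (0.189 and 0.203), and 8 members passed as higher without 32 h library 1. In ribosome biogenesis 1 of 29 was lower (median -0.18), near the 2.63% of all genes. It was Gnl3 (nucleostemin), from 346 and 230 to 73.5 and 66.3 CPM; it did not pass without 60 h library 1 (edgeR adjusted p = 0.113) or 60 h library 2 (0.152), and 4 members were lower without 32 h library 1 and 12 without 32 h library 2. Sterol synthesis had 0 calls in 18 genes (median 0.26).

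In the integrated stress response list 1 of 16 was lower (median -0.74), Vldlr, a lipoprotein receptor, from 29.6 and 15.9 to 3.05 and 2.62 CPM (-3.00 ± 0.44, edgeR adjusted p = 0.0350), with 6 lower without 32 h library 2 and 3 without 60 h library 2. Among cytosolic chaperones 1 of 16 was higher and 1 lower (median -0.68), the small heat shock genes Hspb8 (1.74 ± 0.32) and Cryab (-1.78 ± 0.25). Neither passed without 60 h library 1 (edgeR adjusted p = 0.0627 and 0.199) or 60 h library 2 (0.121 and 0.205), and 3 members were lower without 32 h library 1 and 6 without 32 h library 2. Of 26 interferon response genes 25 were tested and 2 were lower (median -1.13). The few calls in the stress response, chaperone and interferon lists stand beside 2.57% higher and 2.63% lower among all genes tested. Of the 25, 4 (Ifit1, Ifit3, Irf7 and Nlrc5, none called) entered only through the 32 h libraries, so the filter set part of the median. Irf9, part of the interferon-activated transcription complex, went from 11.0 and 25.1 to 2.49 and 2.40 CPM (-2.88 ± 0.51, edgeR adjusted p = 0.0440) and was called with any 1 library left out. Irf1 was the other (-2.13 ± 0.35), and it did not pass without 32 h library 2 (edgeR adjusted p = 0.0544) or 60 h library 1 (0.145); 7 members were lower without 32 h library 1 and 4 without either 60 h library.

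Of 26 collagens and basement membrane genes, 2 were higher and 1 lower (median -0.62), beside 2.57% and 2.63% of all genes tested. The share of lower calls was near that of all genes. Lamb1 (laminin beta 1) went from 15.6 and 11.3 to 73.2 and 98.2 CPM, and Lama5 (laminin alpha 5) from 31.3 and 32.6 to 148 and 140 CPM (2.67 ± 0.32 and 2.17 ± 0.25, edgeR adjusted p = 0.0285 and 0.0280), both called with any 1 library left out. Col4a1 (collagen IV alpha 1) went from 138 and 156 to 36.9 and 44.9 CPM (-1.85 ± 0.27) but did not pass without 60 h library 1 (edgeR adjusted p = 0.207) or 60 h library 2 (0.128). Without 32 h library 1 there were 7 lower members, and without 32 h library 2 there were 4 lower and 4 higher.

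The largest changes lay partly outside these lists. The largest changes given here are those of called genes that reached 20 CPM at the higher time and did not overlap between times. The largest rise among these was in Trim66, a chromatin reader of the TRIM family, from 0.351 and 0.101 to 21.8 and 19.8 CPM (6.47 ± 0.62, edgeR adjusted p = 0.0280); it too entered only through the 60 h libraries. Cd276, an immune checkpoint ligand of the B7 family, went from 2.72 and 1.71 to 59.5 and 55.0 CPM (4.68 ± 0.37). Trp53i11 went from 12.7 and 12.4 to 283 and 313 CPM (4.57 ± 0.29), Nhsl1 from 1.87 and 1.48 to 29.7 and 31.3 CPM (4.18 ± 0.34), and Fmn1 (formin 1, an actin nucleator) from 0.761 and 2.49 to 35.9 and 27.6 CPM (4.29 ± 0.63). In all 5 both 60 h libraries stood far above both 32 h libraries. By the same rule the 8 largest falls were in Icam1, Tnfaip6, Ccl11, Ccl2, Ccl7, Bmp2, Pmepa1 and Tnfaip3. Icam1, an adhesion receptor for leukocytes, went from 92.5 and 25.6 to 1.63 and 0.644 CPM (-5.69 ± 0.85, edgeR adjusted p = 0.0362), and Tnfaip6, a secreted hyaluronan-binding protein, from 75.5 and 46.5 to 1.42 and 1.25 CPM (-5.51 ± 0.41). The chemokine genes Ccl11, Ccl2 and Ccl7 fell by 5.49 ± 0.44, 5.12 ± 0.51 and 4.80 ± 0.56 on the log2 scale, from 19.5 CPM or more to 5.58 CPM or less in each library; Ccl11 entered only through the 32 h libraries. Tnfaip3 (A20, an inhibitor of NF-kB) and Pmepa1 (a TGF-beta target) fell by 4.77 ± 0.82 and 4.78 ± 0.75. The 12 genes given here with their changes were called with any 1 library left out.

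Marker genes of other cell types moved in the same direction as several of these falls. Bulk libraries cannot tell fewer cells of a type from less RNA per cell. The counts of markers stand beside 2.63% of all genes tested that were lower. Endothelial markers were lower in 9 of 12 genes (median -3.23), and their summed level was 168 and 128 CPM at the earlier time and 19.6 and 20.96 CPM at 60 h. Of these 12, 3 (Kdr, Flt1 and Tie1, all called) entered the test only through the 32 h libraries, so the filter set part of their difference and of the count. Tek (the Tie2 receptor) went from 21.8 and 20.6 to 2.27 and 2.49 CPM and Esam from 15.7 and 14.1 to 1.80 and 1.03 CPM, both called with any 1 library left out. In uninjured cells Tek stood at 29.996 and 59.8 CPM, beside 0.937 and 1.03 CPM for Esam and 0 and 0.469 CPM for Tie1. Tek, which is among the called markers, thus did not follow Esam and Tie1 there. Which cells its RNA came from was not tested. Tie1 went from 8.51 and 5.78 CPM to no count at 60 h, at least 112-fold lower against a floor of 3 counts over both 60 h libraries; it did not pass without 32 h library 1 (edgeR adjusted p = 0.0519), and neither did Flt1 (0.0558). Between 6 (without 32 h library 1) and 10 (without 60 h library 2) endothelial members were lower when 1 library was left out.

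Of 12 markers of fibro-adipogenic cells, the connective tissue progenitors of muscle, 11 were tested. Of these, 6 were lower (median -2.71), beside 2.63% of all genes tested. Their summed level was 715 and 1205 CPM and then 218 and 201 CPM. Dcn (decorin) went from 120 and 110 to 16.6 and 9.83 CPM and Dpt (dermatopontin) from 41.9 and 54.4 to 8.62 and 7.34 CPM. Markers were lower in 3 of 10 genes for pericytes and smooth muscle (median -2.08, summed level 216 and 343, then 153 and 148 CPM), 2 of 6 for Schwann cells (-2.15, 156 and 219, then 51.2 and 50.5 CPM), 3 of 5 for erythroid cells (-4.27, 26.7 and 118, then 5.02 and 3.22 CPM) and 1 of 5 for tenocytes (-2.19, 104 and 127, then 15.2 and 8.85 CPM). Most of the Schwann sum was Pmp22, at 140 and 204 CPM and then at 47.6 and 48.7 CPM. In uninjured cells Pmp22 stood at 93.6 and 110 CPM. Most of the tenocyte sum at 32 h was Thbs4, at 94.0 and 99.4 CPM and then at 7.38 and 2.15 CPM. Some genes of these marker lists also entered the test only through the 32 h libraries. Among the called ones they were Hbb-bs and Hbb-bt (erythroid), Kcnj8 (pericytes) and S100a9 (neutrophils). Among those not called they were 3 fibro-adipogenic and 4 Schwann markers, Myh11 (pericytes) and Mkx (tenocytes). Also not called were Csf3r and Mmp8 (neutrophils), Ccr2 and Fcgr1 (macrophages) and Cd79a (lymphocytes). Tnmd (tenocytes, not called) entered only through the 60 h libraries. The filter thus set part of the counts and medians of these marker lists. The Schwann count was 1 without 32 h library 1 or 60 h library 2, the erythroid count 2 without 32 h library 2, and the tenocyte count 0 without 32 h library 2. Of 8 neutrophil markers 5 were tested and 2 were lower (median -1.54), S100a8 and S100a9, and neither passed without 32 h library 1 (edgeR adjusted p = 0.0573 and 0.0669). Of 8 lymphocyte markers 1 was tested and it was not called, and Cd3e and Ms4a1 did not pass the filter. None of the 14 macrophage markers was called by the edgeR test (median -0.82). Their summed level was 77.1 and 561 CPM at the earlier time and 275 and 59.3 CPM at 60 h, and all 14 were higher in library 2 at 32 h and in library 1 at 60 h. The part of these other cells in the falls of chemokine, immediate early, BMP and interferon genes was not tested.

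**Figure D4:**
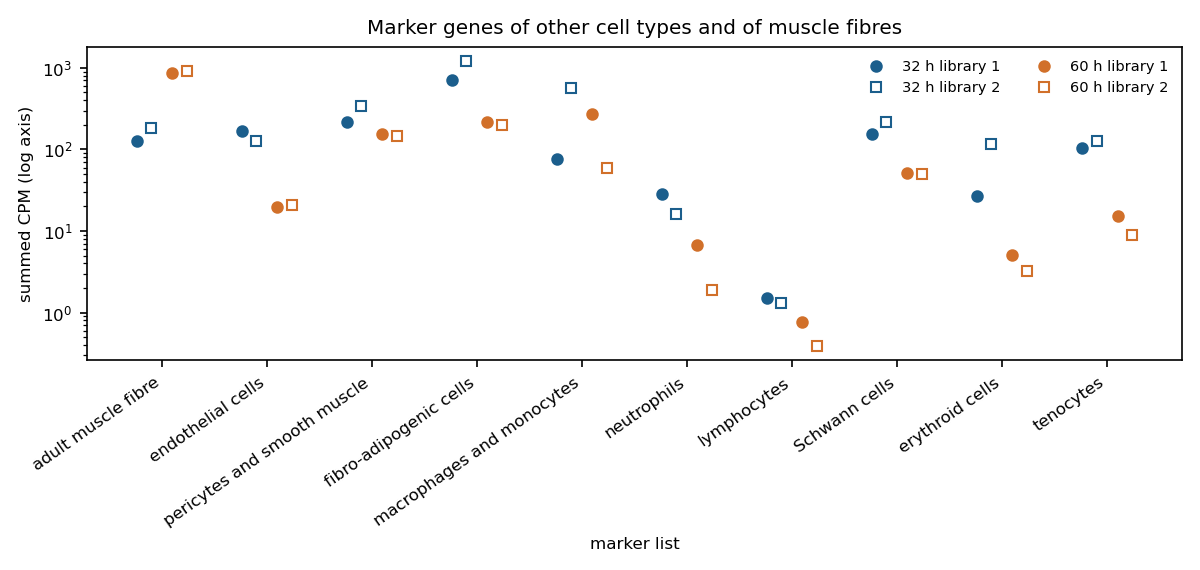
Summed CPM of each marker list in the 4 libraries (log axis); blue symbols are 32 h and orange symbols 60 h, circles library 1 and open squares library 2. Endothelial sums are 168 and 128 CPM at the earlier time and 19.6 and 20.96 CPM at 60 h. Adult fibre sums are higher at 60 h (866 and 919 CPM), mostly through Eno3 (504 and 519 CPM) and Actn3 (266 and 291 CPM). The median change of that list is -1.06. Macrophage sums (77.1 and 561, then 275 and 59.3 CPM) overlap between the times.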

How the data were processed

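Polyadenylated RNA of fixed satellite cells was sequenced in 2 libraries at 32 h and 2 at 60 h after injury. The authors deposited raw counts per gene for 18 libraries of this time course in a single file, with 55450 gene identifiers, all found in GENCODE M21. Per the submitters' processing notes, Trimmomatic 0.36, HISAT2 2.1.0, SAMtools 1.3 and StringTie 1.3.3 were used with mm10, and they name no counting program, strand setting or annotation release. Amplified copies are counted, since no molecular identifiers are mentioned, and 46 of 119 named genes overlap a model on the other strand.

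Counts of the 4 libraries were fitted with edgeR 4.0.16 (R 4.3.3, limma 3.58.1, data.table version 1.17.8), with TMM factors from all 18 libraries, filterByExpr (minimum count 10, minimum total 15), the quasi-likelihood F test and Benjamini-Hochberg adjustment (threshold 0.05). Each SE is the size of the log2 change divided by the root of F; the common dispersion was 0.160. Named genes are the 8 called genes that rose most and the 8 that fell most, given 20 CPM or more at the higher time and no overlap between times (unnamed models, ribosomal protein and mitochondrial genes passed over), up to 4 called members with the smallest adjusted p for each direction of 30 lists (588 genes), and a panel of 40 genes; other list members appear as examples, chosen after their values were seen. The comparison, lists and rule were chosen with earlier results of these data known. Lists are described by counts and medians, with no set test. Alternatives were other scaling, DESeq2 1.42.0, no filter, a replicate block, wider fits, ribosomal RNA models left out, and each library left out; the wider of 2 sets of ribosomal RNA models was chosen after the data were seen. Promoter windows are from RefSeq (GRCm38.p6). The old-cell table was scaled on its own and enters no test.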

Additional observations from a re-analysis of the deposited data

How the results depend on the processing

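The 956 calls (472 higher, 484 lower) became 3386 (1453 and 1933) with DESeq2, 0 (0 and 0) with no filter on low counts, 2630 (963 and 1667) with 10 libraries in the fit and 830 (233 and 597) with all 18; leaving out 1 library gave 1104 to 2565 calls, 376 to 1564 higher and 728 to 1448 lower. The higher share of calls was 49.4%, 28.1% with 18 libraries and 36.6% with 10. DESeq2 gave 10 lower satellite identity genes and 20 lower immediate early genes. With no filter the smallest adjusted p among named genes was 0.0533, and all 6 list counts followed in the text (new muscle, mitosis, satellite identity, immediate early, endothelial and fibro-adipogenic) were 0. With all 18 libraries new muscle and mitosis had 5 higher genes each, and immediate early and endothelial lists 5 lower each. Leaving out 1 library gave 14 to 33 mitotic genes, 4 to 11 satellite identity genes, 14 to 18 new muscle genes, 9 to 15 immediate early genes, 6 to 10 endothelial genes and 4 to 7 fibro-adipogenic genes.

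Replicate numbers are shared by both times, but library 1 minus library 2 did not go together across genes (r = -0.03 across genes, which are not independent replicates). With a replicate block 1525 genes were called (625 higher, 900 lower), 17 immediate early genes were lower, and Pax7 turned to 0.29. Signs of genes not called also turned with a 32 h library left out. Without library 1 and without library 2 the log2 changes were -0.92 and 1.51 for Pax7, 0.044 and -1.69 for Myod1, 0.99994 and -0.17 for Mcm2, -1.55 and 0.27 for Hes1, -0.32 and 0.98 for Heyl, -0.84 and 0.24 for Mef2c, and -0.057 and 1.26 for Cdh15. Of the 87 called named genes, 87 were called again under TMM on the 4 libraries, RLE factors, DESeq2 and both ways of leaving out ribosomal RNA models, 85 with the block, 78 and 43 with 10 and 18 libraries, and 62 to 79 without 1 library. Where not stated otherwise, the cause was not tested. With 2 libraries a group, genes near the filter, such as Mymx, carry large errors.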

Other observations

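The series also holds 2 libraries of old satellite cells labelled oASC, taken 2.5 days after injury, the same time as 60 h, in a count table that was scaled on its own; age and table cannot be told apart and no test was made. Ccnb1 stood there at 275 and 268 CPM and Plk1 at 132 and 125 CPM, beside 265 and 269 CPM and 126 CPM at 60 h in the cells not labelled old. Myog stood at 99.0 and 119 CPM, Mymk at 22.2 and 31.5 CPM, and Myh3 at 17.4 and 22.2 CPM. Chrng stood at 21.2 and 25.3 CPM and Ttn at 123 and 149 CPM, beside 61.9 and 62.1 CPM and 402 and 364 CPM. Pax7 stood at 9.03 and 8.68 CPM, beside 157 and 149 CPM, and Smyd1 at 1.74 and 2.01 CPM, beside 18.8 and 13.4 CPM. The 8 genes of the largest falls were all higher in both old libraries than at 60 h. They were chosen by their fall to 60 h, so another group may lie above them by that choice alone. Likewise the 8 genes of the largest rises, all but Trp53i11, were lower in both old libraries than at 60 h. Trp53i11 stood at 358 and 355 CPM, beside 283 and 313 CPM. Among the falls, Ccl2 stood at 201 and 286 CPM, beside 5.11 and 3.69 CPM. Icam1 stood at 42.1 and 49.1 CPM, beside 1.63 and 0.644 CPM. Jun was also higher, at 723 and 678 CPM, beside 87.7 and 115 CPM. Chrdl2 was lower, at 6.29 and 2.72 CPM, beside 11.8 and 11.1 CPM.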
